A study of Mus musculus with 10 samples.

Results

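The genes described here are 10 components of the Notch pathway in Bergmann glia: the receptors Notch1 and Notch2, the ligands Jag1 and Dll1, the neuronal Notch-binding protein gene Dner, the DNA-binding protein gene Rbpj, and the transcriptional effectors Hes1, Hes5, Hes6 and Hey1. A probe set was taken as a member where the array annotation paired it with exactly 1 gene, that gene was one of the 10, and all cells had a value. This gave 19 probe sets of 43608 with complete values, and none of the 10 genes had a probe set with a blank.

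Each array held amplified cDNA from 1 GFP-positive cell of the mid-sagittal cerebellum of GFAP-GFP reporter mice, in which the Gfap promoter drives GFP, with 5 arrays from P6 animals and 5 from P30 animals. The same reporter was carried at both ages. Bergmann glia were picked by bright GFP and a bushy unipolar shape, and the cDNAs were then screened for Gfap, Fabp7, Septin4 and Slc1a3 and against neuronal transcripts, so that these markers are no independent check of the label. The animal behind each cell is not named in the labels or the methods, so each age counts as 1 sample, no p-value was computed, and the SD and ranges below describe cells.

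In Notch signaling, a ligand on one cell binds a receptor on its neighbour, the receptor is cleaved by an ADAM protease and then by gamma-secretase, and its intracellular part joins RBPJ and a Mastermind protein at target genes. Among the best known targets are the Hes and Hey genes, which encode basic helix-loop-helix repressors that hold back neuronal differentiation. In the cerebellum the pathway is known for its part in the formation and radial shape of Bergmann glia, and DNER, a transmembrane protein of Purkinje neurons, has been described as a ligand that acts on these glia.

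The values are ratios, not levels. Each was scaled to its array and then divided by a median for its probe set. The median of the 5 P6 cells was 1 in 69.6% of the complete probe sets (tolerance 0.0015). In those, a ratio of 1, or a log2 ratio of 0, stands for a typical P6 cell. A ratio of 1 is called the reference below for all probe sets and genes, also where P6 cells lie away from it. Levels of different genes can thus not be compared, and the ratios carry no detection call. Differences are mean log2 ratios at P6 minus those at P30, and a gene or probe set was called where the difference exceeded 3-fold. Ratios have a floor of 0.01, which 0.814% to 2.31% of values met on the single arrays. A fold against cells at the floor is given as "at least". Centering the arrays on their medians would shift every difference by -0.16 on the log2 scale, and centering on the hybridisation spikes by 0.29. Astroglial markers (13 of 13 measured) had a median difference of -0.20, with 1 gene, Gja1, over 3-fold higher at P30, and summed ratios of 11.8 to 19.0 in P6 cells and 14.6 to 36.3 in P30 cells. Markers of other cells were high in several libraries, and the counts below have no share of all genes in the same cell beside them. In P6 replicate 5, 4 of 7 general neuronal markers were over 3-fold above the reference. In P30 replicate 5 this held for 4 of 7 Purkinje neuron markers and 4 of 7 endothelial and pericyte markers. It also held there for 2 of 9 granule neuron and precursor markers, 2 of 5 oligodendrocyte markers and 1 of 7 general neuronal markers (Snap25). In P30 replicate 4 it held for 2 of 7 Purkinje neuron markers (Rgs8 at a log2 ratio of 5.50 and Pvalb at 3.27). It held there as well for 1 of 7 general neuronal markers (Snap25 at 3.61) and 2 of 5 oligodendrocyte markers (Mbp at 2.60 and Mobp at 2.61). The same cell had 1 of 9 granule neuron and precursor markers and 1 of 7 endothelial and pericyte markers over that line. P6 replicate 2 had 2 of 7 Purkinje neuron markers over it (Calb1 at 2.17 and Pcp2 at 1.63). Pdgfrb, of the endothelial and pericyte list, stood at 5.77 in P6 replicate 1 and at 6.21 in P30 replicate 2. Pvalb stood at 6.21 in P30 replicate 1. The oligodendrocyte list had a median difference of -1.27 over 5 genes, with Mbp 3.12-fold higher at P30 and Cnp higher in every P30 cell. Mog and Mag had differences of -0.42 and -0.11. Among P30 cells Mobp stood at 2.61 and 2.96 in replicates 4 and 5 and at -0.63 to 0.12 in the others. Mbp stood at -2.23 and -2.56 in P30 replicates 2 and 3 and at 1.64 to 2.62 in the others. Summed ratios of the list were 3.16 to 8.03 in P6 cells and 5.11 to 18.7 in P30 cells. The part of these cells in the results below was not tested.

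The effector genes showed the clearest difference between the ages. All 6 probe sets of Hes1, Hes5, Hes6 and Hey1 were over 3-fold higher at P6, and 4 of them, those of Hes1, Hes5 and Hey1, had every P6 cell above every P30 cell. Over all 19 member probe sets, 10 (52.6%) were over 3-fold higher at P6, where 11.1% of all complete probe sets were, and 1 was over 3-fold higher at P30, where 6.60% were. All P6 cells lay above all P30 cells in 4 of the 19 (21.1%), against 1.79% of all complete probe sets, and the reverse was met by none, against 1.20%. The median log2 difference was 1.71 over the member probe sets and 0.01 over all complete ones. In terms of genes, 4 of 10 exceeded 3-fold at P6, where 9.39% of 17919 genes did.

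**Figure D1:**
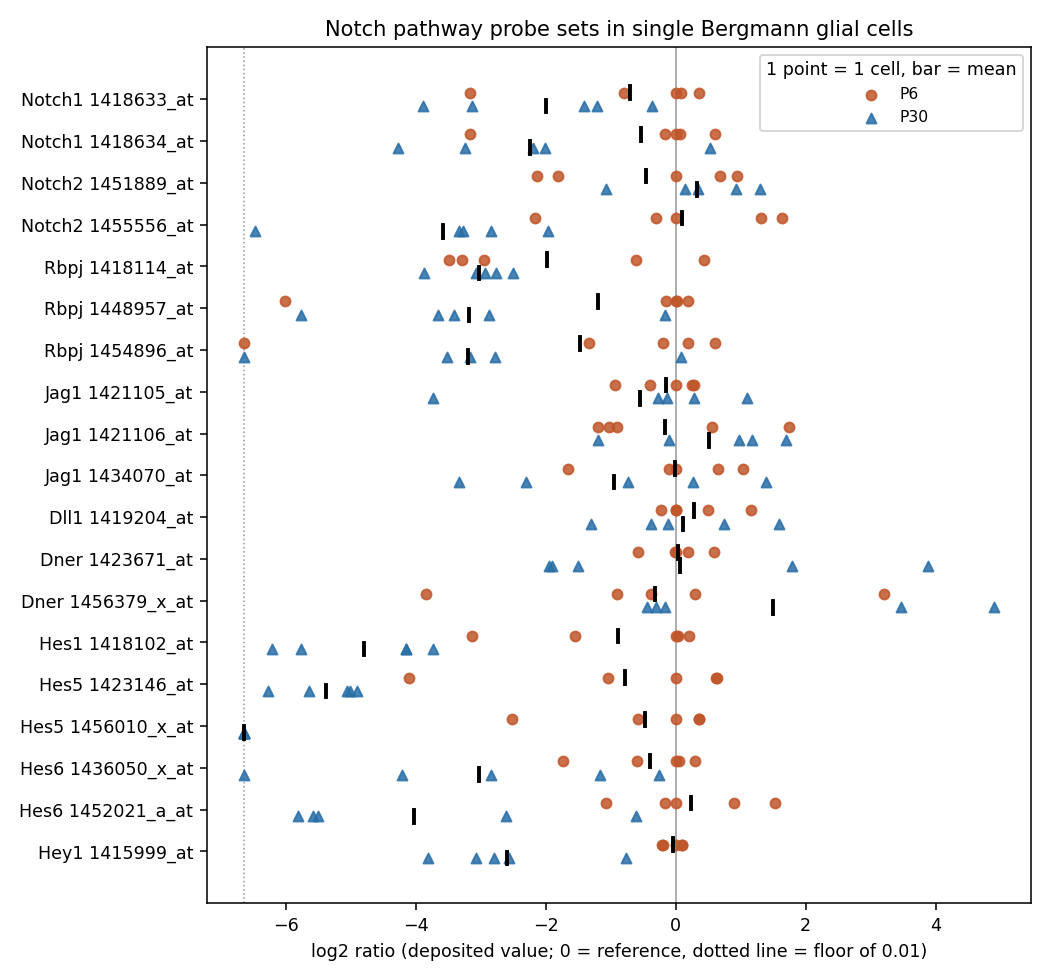
Log2 ratio (x axis) of the 19 member probe sets (y axis) in 5 P6 cells (orange circles) and 5 P30 cells (blue triangles), with black bars at the mean of each age and a dotted line at the floor. The Hes1, Hes5 and Hey1 points of the ages do not overlap, whereas the Jag1, Dll1 and Dner points do.

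Hes5, a repressor of neuronal differentiation that is a standard readout of Notch activity, had the largest difference of the members. For probe set 1456010_x_at the deposited ratios were 0.671, 1.279, 1.284, 1.0 and 0.174 in P6 replicates 1 to 5, and 0.01 in each of the 5 P30 cells. All P30 cells thus sat at the floor, and Hes5 was at least 71.9-fold higher at P6. Probe set 1423146_at had ratios of 0.484, 1.542, 1.552, 1.0 and 0.058 at P6 and 0.0333, 0.031, 0.0199, 0.0299 and 0.013 at P30, none of them at the floor. Its mean log2 ratio was -0.78 ± 1.98 in P6 cells and -5.38 ± 0.57 in P30 cells (SD, n = 5 of each age), a 24.3-fold difference. The ages were apart in both probe sets, and in both P6 replicate 5 was the lowest P6 cell.

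The Hes5 promoter is shown because the gene had the largest difference and because matches to the core sequence that RBPJ is known to bind stood there in pairs. RefSeq promoter windows were matched for 8 of the 10 members, all but Hes1 and Hey1, and the 250 bases before the transcription start were searched on both strands. The core TGGGAA occurred in 21.6% of the 32851 windows of the table and more than once in 2.77%. The longer form GTGGGAA, which contains the core, occurred in 5.42% and more than once in 0.161%. Hes5 had 2 matches to the longer form, and the 2 core matches within them lay 76 and 220 bases before the start. Of the other members Rbpj alone held the core, with 2 matches in the first of its 2 windows. The second window overlaps the first and holds 1 of the same 2 matches, and neither window held the longer form. The windows of Hes6, Notch1, Notch2, Jag1, Dll1 and Dner held neither. The windows below are in build GRCm38.p6, written 5′ to 3′ on the strand of the gene, with the core in capitals on either strand, and 1 of the 2 windows of Hes6 is set beside Hes5 as that of an effector without a match.
Hes5, chr4:154960673-154960922, + strand: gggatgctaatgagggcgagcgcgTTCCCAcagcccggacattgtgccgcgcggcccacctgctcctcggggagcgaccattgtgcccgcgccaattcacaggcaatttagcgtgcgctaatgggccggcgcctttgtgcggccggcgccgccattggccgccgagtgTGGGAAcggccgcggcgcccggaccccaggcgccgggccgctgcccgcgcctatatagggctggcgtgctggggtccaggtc
Rbpj, chr5:53590096-53590345, + strand: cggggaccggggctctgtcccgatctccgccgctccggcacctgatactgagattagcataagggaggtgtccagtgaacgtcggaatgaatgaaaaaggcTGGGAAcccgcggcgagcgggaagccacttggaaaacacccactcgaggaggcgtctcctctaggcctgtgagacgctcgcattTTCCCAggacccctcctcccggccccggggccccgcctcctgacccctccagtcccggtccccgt
Hes6, chr1:91413223-91413472, - strand: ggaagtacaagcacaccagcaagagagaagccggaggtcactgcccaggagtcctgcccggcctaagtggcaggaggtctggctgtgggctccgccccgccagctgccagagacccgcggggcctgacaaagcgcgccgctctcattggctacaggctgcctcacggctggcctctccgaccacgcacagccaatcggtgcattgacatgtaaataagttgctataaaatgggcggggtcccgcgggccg
These matches are letters in a window, and binding was not measured.

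Hes1, the other Hes repressor that is a direct Notch target, had ratios of 1.023, 0.342, 1.0, 1.16 and 0.114 in the P6 cells and 0.0747, 0.0563, 0.0135, 0.0565 and 0.0185 in the P30 cells. It was 15.1-fold higher at P6, with log2 means of -0.89 ± 1.44 and -4.80 ± 1.10. The lowest P6 cell, again replicate 5, lay 0.61 above the highest P30 cell on the log2 scale. Hey1, a repressor of the related Hey family, had ratios of 1.07, 1.067, 0.875, 0.867 and 1.0 at P6 and 0.0713, 0.144, 0.118, 0.585 and 0.169 at P30. The SD of its P6 cells was 0.15 on the log2 scale, the smallest of the members at that age, and Hey1 was 5.91-fold higher at P6. Its highest P30 cell was replicate 4.

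Hes6, which is known to oppose Hes1 and to favour differentiation rather than to act as a Notch target, also had higher means at P6, but its ages overlapped. For probe set 1452021_a_at the ratios were 0.886, 2.887, 1.85, 1.0 and 0.476 at P6 and 0.656, 0.0208, 0.163, 0.0178 and 0.0219 at P30, a 19.2-fold difference. For probe set 1436050_x_at they were 0.666, 1.036, 1.0, 1.219 and 0.3 at P6 and 0.835, 0.01, 0.14, 0.449 and 0.054 at P30, and the difference was at least 6.16-fold. P30 replicate 1 lay within the P6 range in both, as did P30 replicate 4 in the second, while the other P30 cells lay below it. Without P30 replicates 2 and 5 the second probe set fell to a log2 difference of 1.02 from 2.62, which ends its call, as do arithmetic means (1.50).

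Seen cell by cell, the effectors did not move as a block. Each of the 6 effector probe sets had its P6 median at the reference. P6 cells thus lie around the reference by construction, and P30 cells need not. No share over all probe sets is set beside the counts per cell that follow. None of the 6 was more than 3-fold below the reference in P6 replicates 1 to 4. In P6 replicate 5, 4 were, those of Hes1, Hes5 and 1 of Hes6, while Hey1 stood at 1.0. P30 replicates 2, 3 and 5 had all 6 under that line and P30 replicates 1 and 4 had 4, the former with Hes6 and the latter with Hey1 and 1 Hes6 probe set above it. P6 replicate 5 was also the P6 cell with the highest summed ratio of the 7 general neuronal markers, 43.2 against 4.53 to 8.68 in the others. Stmn2, Tubb3, Gap43 and Snap25 led this sum, at log2 ratios of 3.21 to 3.47. Syt1, Nefl and Map2 stood below the reference in the same cell, at -0.38, -1.40 and -0.22. The part of neuronal RNA in the low Hes1 and Hes5 values of this cell was not tested. Without this cell the log2 difference was 4.48 for Hes1 and 5.43 and 6.68 for the Hes5 probe sets, larger than with it.

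**Figure D2:**
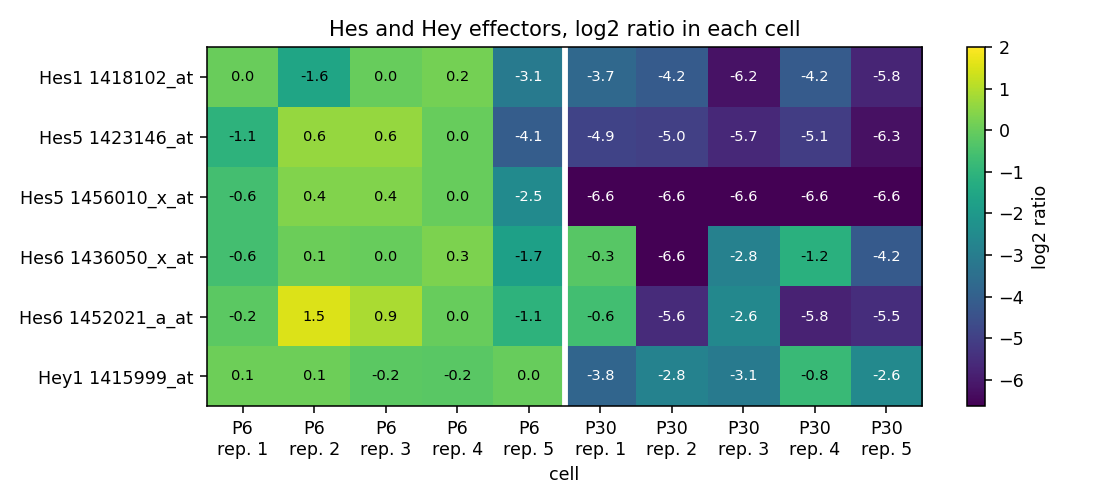
Log2 ratio of the 6 effector probe sets (rows) in each of the 10 cells (columns, white line between ages), with colour and printed number giving the same value. P6 replicate 5 is low for Hes1 and Hes5 but at 0.0 for Hey1, and P30 replicate 1 keeps Hes6 at -0.3 and -0.6.

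Of the 4 receptor probe sets 2 were over 3-fold higher at P6, and those of Notch2 went in opposite directions. Notch2 probe set 1455556_at had ratios of 0.223, 1.0, 3.123, 2.486 and 0.809 at P6 and 0.14, 0.256, 0.0989, 0.0113 and 0.103 at P30, so that 1 P6 cell, replicate 1, fell within the P30 range. The difference was 12.8-fold. Probe set 1451889_at of the same gene had ratios of 0.285, 1.917, 1.0, 1.597 and 0.228 at P6 and 1.907, 2.462, 0.475, 1.263 and 1.103 at P30, a log2 difference of -0.79 in the other direction and under 3-fold. Where on the transcript each probe set lies is not given in the sources used here, and the mean over both was 2.71-fold higher at P6, below the 3-fold rule. That mean exceeded 3-fold in 8 of 18 alternatives, among them medians (2.04) and spike centering (1.73).

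Notch1, the receptor best studied in neural progenitors, was 3.27-fold higher at P6 by probe set 1418634_at and 2.46-fold by 1418633_at. The log2 ratios of the first ran from -3.17 to 0.61 at P6 and from -4.27 to 0.53 at P30, and those of the second from -3.17 to 0.36 and from -3.89 to -0.36. The ages overlapped in both, with P6 replicate 2 at a ratio of 0.111 in each probe set. The 3-fold call of the first was lost when any one of P6 replicates 3, 4 or 5 or P30 replicates 1 or 4 was left out (log2 differences of 1.20 to 1.58) and with median centering (1.55), a floor of 0.1 (1.52) or arithmetic means (1.15). The second was over 3-fold without P6 replicate 2 (1.91) or P30 replicate 5 (1.71).

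Rbpj, the DNA-binding partner of all Notch receptors, had 3 probe sets that were 2.06-fold, 3.95-fold and 3.29-fold higher at P6, and their mean was 2.99-fold higher, just under the size rule. The mean over the 3 probe sets exceeded 3-fold in 7 of 18 alternatives. In the first, 1418114_at, P6 replicates 1, 4 and 5 had ratios of 0.102, 0.0887 and 0.129, inside the P30 range of 0.0681 to 0.177. Its log2 difference was -0.01 with medians, 0.44 without P6 replicate 2 and 1.86, over 3-fold, with arithmetic means. In the other probe sets single cells ranged widely at both ages. In 1448957_at, 4 P6 cells had ratios between 0.899 and 1.137 and P6 replicate 4 had 0.0155, while P30 replicate 1 had 0.886 and the other P30 cells 0.0185 to 0.136. In 1454896_at the floor was met by 1 cell of each age, so that its fold is no bound. The call of 1448957_at was lost without P30 replicate 4 (1.34). That of 1454896_at was lost without P6 replicate 1, 4 or 5 (1.20, 1.30 and 1.40) or P30 replicate 1 (0.86), and with median centering (1.56) or arithmetic means (1.47).

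The ligands of the canonical kind did not differ by 3-fold in their means. Jag1, which encodes the ligand Jagged1, had log2 differences of 0.39, -0.67 and 0.93 in its 3 probe sets, of which the second, 1421106_at, exceeded 3-fold toward P30 when medians were compared (-1.87). Dll1, which encodes Delta-like 1, had 0.18, with log2 ratios from -0.23 to 1.15 at P6 and from -1.31 to 1.59 at P30. The ages overlapped in each of these 4 probe sets, and the differences were below the pooled SD between cells, which was 0.88 to 1.53.

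**Figure D3:**
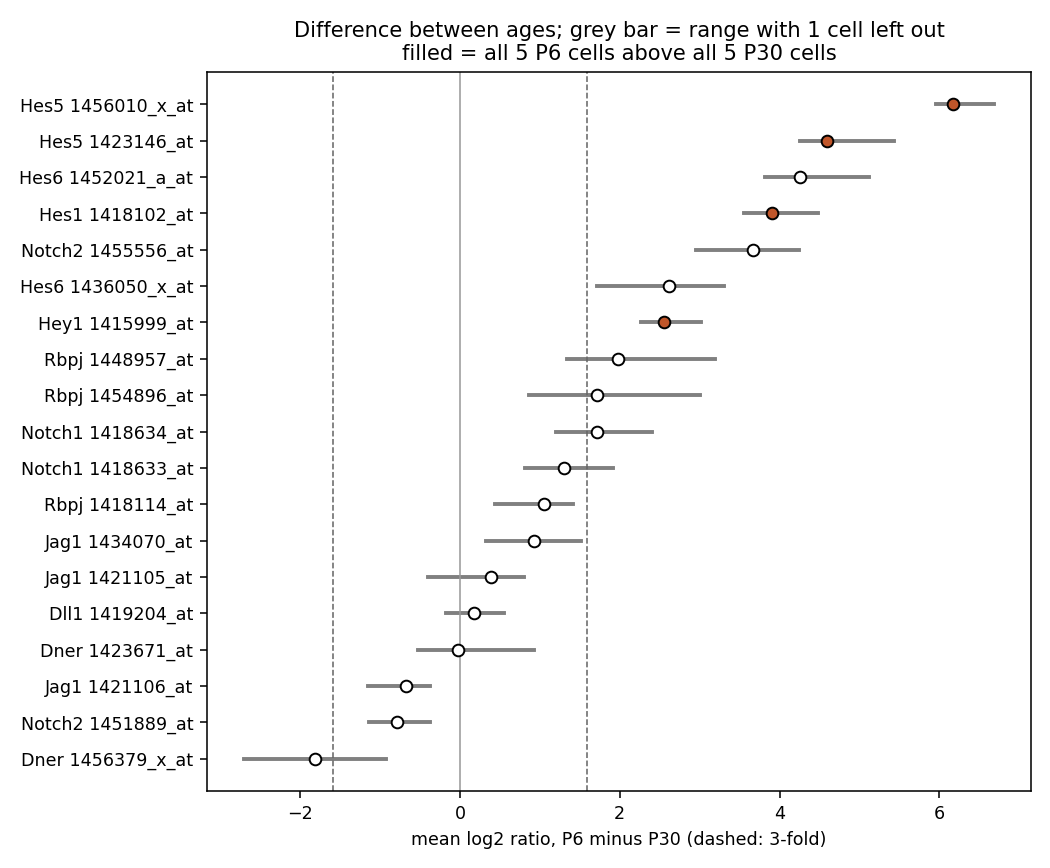
Mean log2 ratio at P6 minus P30 (x axis) for the 19 member probe sets in order of size, with grey bars for the range when each cell is left out in turn, dashed lines at 3-fold, and filled points where all 5 P6 cells lie above all 5 P30 cells. The 6 effector probe sets stay right of the dashed line throughout their bars, as does 1 Notch2 probe set.

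Dner was the member in which single cells stood furthest above the reference. Probe set 1423671_at had ratios of 0.994, 0.669, 1.0, 1.508 and 1.138 at P6 and 0.268, 14.73, 0.353, 0.258 and 3.439 at P30. Probe set 1456379_x_at had 0.768, 1.232, 0.0692, 0.533 and 9.169 at P6 and 0.888, 29.74, 0.804, 0.736 and 11.06 at P30. P30 replicates 2 and 5 were thus the 2 highest cells in both probe sets, and P6 replicate 5 was high in the second only. The mean log2 difference was -0.02 ± 1.89 (pooled SD) for the first and -1.82 ± 2.52 for the second, which made it the 1 member probe set called higher at P30. Without P30 replicates 2 and 5 the differences were 1.82 and -0.02, so that the first would be called higher at P6 and the second not at all, and the difference of medians for the second was -0.21. The call of the second was also lost without P6 replicate 3 (-0.93), P30 replicate 2 (-0.96) or P30 replicate 5 (-1.32) alone, and with spike centering (-1.52).

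Markers of Purkinje neurons, the main known source of Dner in this tissue, were set beside these values. Itpr1 of the 8 listed was not analysed here, and the other 7 had a summed ratio of 3.75 to 140 in P6 cells and 3.84 to 238 in P30 cells, with 2 genes, Pvalb and Rgs8, over 3-fold higher at P30 and none apart between the ages. In P30 replicate 5, the cell at 238, 4 of 7 were over 3-fold above the reference, with log2 ratios of 7.23 for Pvalb, 6.22 for Rgs8, 2.98 for Pcp2 and 2.11 for Calb1. P30 replicate 2, with the highest Dner, had Pcp2 alone over 3-fold, at 2.68, and a summed ratio of 12.2. P30 replicates 1 and 4 had summed ratios of 79.1 and 57.8 and Dner ratios of 0.258 to 0.888. P6 replicate 2 had 2 of 7 over 3-fold, Calb1 at 2.17 and Pcp2 at 1.63, with Dner ratios of 0.669 and 1.232. In P6 replicate 5, where the second Dner probe set was high, Pvalb stood at 7.07 and Pcp2 at -2.73. The part of neuronal RNA in the Dner values was not tested.

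**Figure D4:**
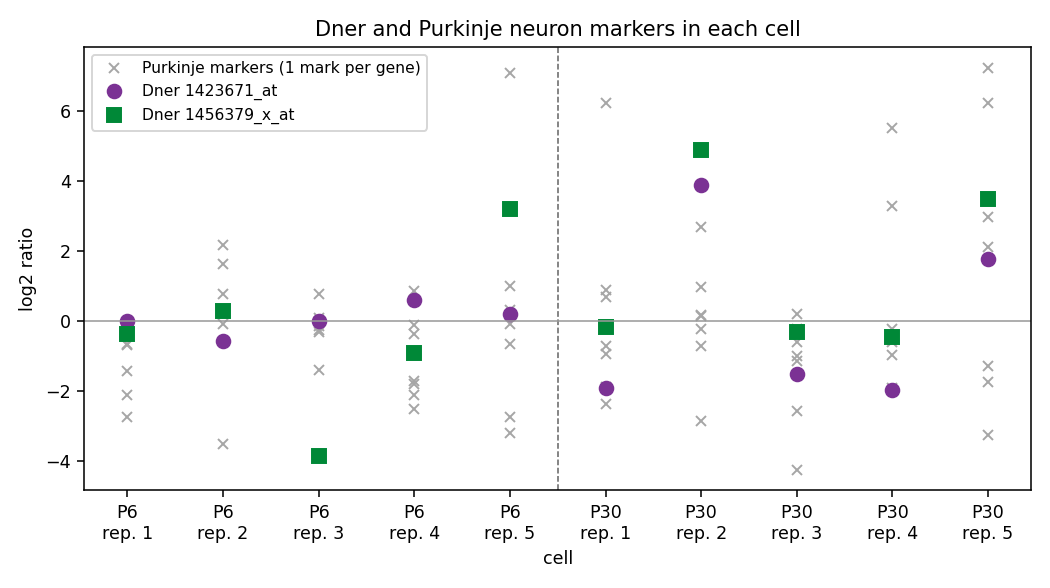
Log2 ratio (y axis) of the 2 Dner probe sets (filled symbols) and of 7 Purkinje neuron markers (grey crosses) for every cell along the x axis, with a dashed line separating P6 from P30. Dner is highest in P30 replicate 2, at 3.88 and 4.89, where 1 of the 7 markers is over 3-fold above the reference.

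The rest of the pathway did not follow the effectors as a group. Of 95 other pathway genes listed by role, 90 had a value. The other 5 were not analysed here. Of the 90, 9 exceeded 3-fold toward P6 and 2 toward P30, against 9.39% and 4.93% of all genes, and 79 were within 3-fold. With arrays centered on the hybridisation spikes these counts were 17 and 0, against 13.2% and 3.32% of all genes under that scaling. All cells of the ages were apart in 4 genes with P6 above and 1 with P30 above, against 2.13% and 1.41% of all genes. The median log2 difference was 0.14 over the 90 genes and 0.05 over all genes.

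Among receptors, Notch3, known from vascular mural cells as well as from neural progenitors, was 3.72-fold higher at P6 with overlapping ages, and its log2 difference of 1.90 came under the rule without P6 replicate 3 (1.36) or P30 replicate 2 (1.52). Of ligands outside the canonical group, Ccn3, a matricellular protein that binds Notch, was 3.44-fold higher at P30, with log2 ratios of 0.10 ± 0.17 at P6 and 1.88 ± 0.66 at P30 and no overlap. It fell under the rule without P30 replicate 3 (-1.52) and with spike centering (-1.49). The canonical ligand Dll4 had a log2 difference of 0.77.

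Genes that modify the receptor or the ligand were mostly within 3-fold. The fringe glycosyltransferases, which tune the response of Notch to its ligands, had log2 differences of 0.55 for Lfng, 0.02 for Mfng and 0.68 for Rfng. Gxylt1, a xylosyltransferase that extends sugars on Notch, was 8.62-fold higher at P6 in the mean but was split between high and low cells at both ages (log2 ratios from -4.70 to 2.09 at P6 and from -6.59 to 1.03 at P30), and with a floor of 0.1 its difference was 1.48. Neurl2, a neuralized-like gene listed here under ligand endocytosis, was 5.40-fold higher at P6 with no overlap. Its action on Notch ligands was not tested. Of 8 measured genes for receptor cleavage, 1 exceeded 3-fold. This was Aph1b, a gamma-secretase subunit gene, 3.67-fold higher at P30 with overlapping ages, and its call was lost with spike centering (-1.58) and without P6 replicate 5 and P30 replicate 5 (-1.58).

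In the nucleus, the coactivator genes Ep300, an acetyltransferase, and Maml2, a Mastermind protein, were 4.31-fold and 3.44-fold higher at P6, with overlap. The Ep300 call was lost with arithmetic means (1.21) and without P30 replicates 2 and 5 (1.55). The Maml2 call was lost in the same settings (1.16 and 1.54) and without P6 replicate 4 (1.53), P30 replicate 1 (1.52) or P30 replicate 4 (1.58). Maml1 had a log2 difference of 0.37. The corepressor gene Spen was at least 4.26-fold higher at P6 in its mean log2 ratio, since 1 P30 value met the floor, but its ages overlapped. P30 replicates 1 and 2, at 0.86 and 0.72, lay above the highest P6 cell, at 0.38. The Spen call was lost without P30 replicate 3 (1.05) or P30 replicate 4 (1.14). It was also lost with a floor of 0.1 (0.84), medians (0.99) and arithmetic means (0.24). Fbxw7, a ubiquitin ligase subunit that marks the Notch intracellular part for breakdown, was 5.57-fold higher at P6 with no overlap, at -0.06 ± 0.36 at P6 and -2.54 ± 1.63 at P30. The Notch inhibitor Numb had a log2 difference of -0.26. None of the 9 other Hes, Hey and target genes exceeded 3-fold, among them Nrarp, a feedback inhibitor that Notch induces, at 0.73, and Nepro at 1.45, the largest of them. Nepro ranged from 0.56 to 2.34 when 1 cell was left out and was over 3-fold in 7 of 18 alternatives.

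**Figure D5:**
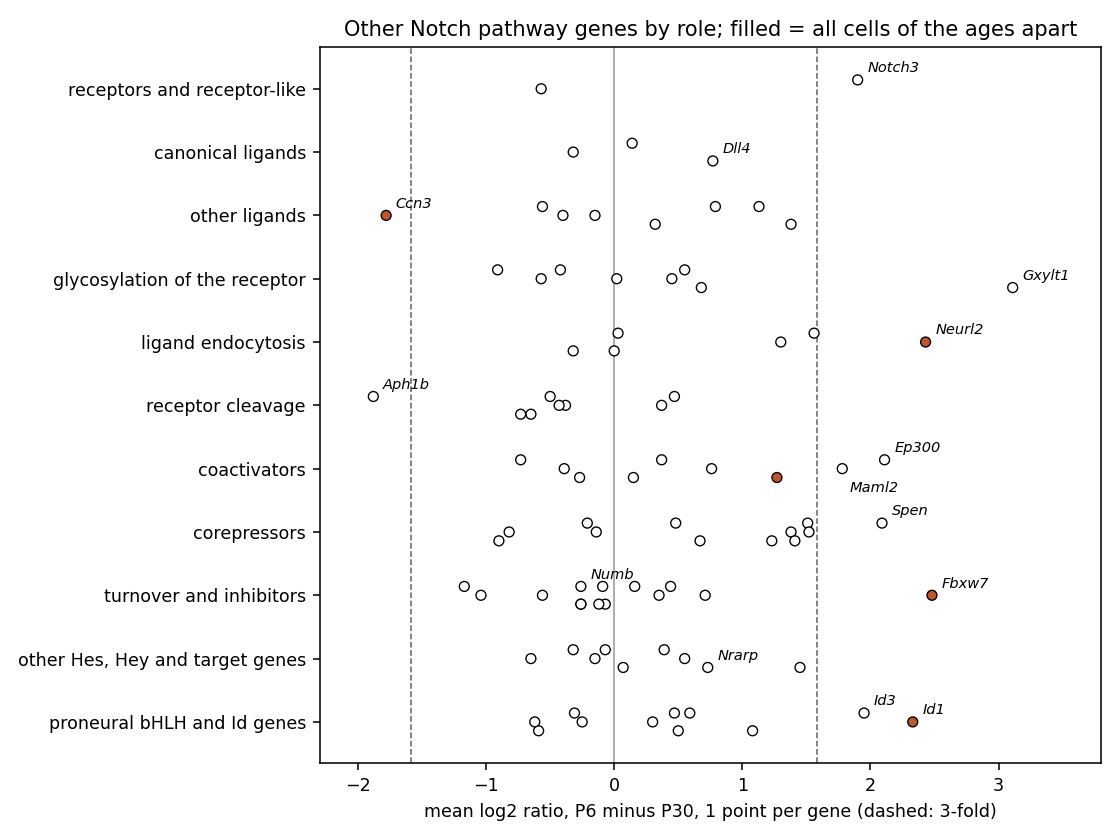
Mean log2 ratio at P6 minus P30 (x axis) for 90 other Notch pathway genes grouped by role (y axis), 1 point per gene, with dashed lines at 3-fold and filled points where the cells of the ages do not overlap. Most genes lie between the dashed lines, with Neurl2, Fbxw7 and Id1 past 3-fold and without overlap at P6.

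The pattern over the 10 cells was then compared with that of every other gene whose SD over cells was at least 0.5 times that of the member, as the root mean square difference between log2 ratios centered on the mean of each gene. For Hes5 the closest of 4832 genes were Gask1b (0.67), Egr1 (0.85) and Fos (0.91), of which Egr1 and Fos encode immediate early transcription factors, and the median over the genes compared was 3.33. For Hes1 they were Gask1b (0.77), Gria3, an AMPA receptor subunit gene (0.94), and Bnip1 (0.99) among 7744 genes, with a median of 2.71. Hes5 was the 13th closest gene to Hes1 (1.15) and Hes1 the 14th closest to Hes5. For Hey1 the closest of 13068 genes were Parp11 (0.60), Rab8b (0.61) and Mrpl43 (0.63), against a median of 1.93. Rbpj was 208th (1.02), while Hes1, Hes5 and Hes6 stood at places 2363, 6205 and 6219 (1.51, 1.90 and 1.90). For Hes6 the closest of 7773 genes were Nsdhl, a cholesterol synthesis enzyme gene (0.71), Pfdn6 (0.90) and Rps10 (0.93), against a median of 2.70. Hes1, Hes5 and Hey1 stood at places 229, 380 and 726 from Hes6. These distances take in the difference between ages that all these genes share and are a description of 10 cells.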

How the data were processed

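The authors hybridised cDNA of single cells to Affymetrix Mouse Genome 430 2.0 arrays and processed the scans with RMA in GeneSpring GX 7.3. They raised values under 0.01 to 0.01 and scaled every array to its median. By the methods, the values of a probe set were then divided by their median over all samples, so the deposited data are linear ratios. In the deposited ratios it was the median of the P6 cells that was 1 in 69.6% of the complete probe sets (tolerance 0.0015). A genome build is not given in the sources used here. Of 45101 probe sets, 43608 were complete. The other 1493 were left out, among them 1013 with values in P30 cells only. The 10 deposited values of 0 were set to 0.01, and ratios reached 931.5. Annotation gave 34958 probe sets 1 gene, 932 several and 9211 none, and 34754 of the first matched RefSeq with no symbol changed. Log2 ratios were averaged over the probe sets of a gene. The comparison was the mean log2 ratio at P6 minus that at P30, and differences over 3-fold were called, without a test, since each age is 1 sample. Precision is limited by having only 5 arrays of each age. The methods' ANOVA took cells as replicates and was not repeated.

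Members, lists and markers were chosen with earlier results of these data known. Named are all member probe sets, in each role the genes past 3-fold with ages apart (otherwise the 1 or 2 largest), the fringe genes, Numb, Maml1, Notch3 and Nrarp, and the 3 genes closest in pattern to each member gene over 3-fold. Alternatives were 2 other scalings (array median, 9 hybridisation spike probe sets), a floor of 0.1, medians, arithmetic means, removal of _x_at and _s_at probe sets, a 2-fold rule and each cell left out. Steps were tested on simulated data. Python 3.11.15, NumPy 2.4.6, pandas 2.3.3 and Matplotlib 3.10.9 were used.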

Additional observations from a re-analysis of the deposited data

Results flagged for a closer look

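In 4 of 37 sets of 5 cells of one age and probe set, 1 cell lay far from the other 4 on the log2 scale by Dixon's criterion, where chance flags about 1 set in 20. Notch1 1418634_at was at -3.17 in P6 replicate 2, with the other P6 cells at -0.16 to 0.61. Jag1 1421105_at was at -3.73 in P30 replicate 2, with the other P30 cells at -0.27 to 1.10. Rbpj 1448957_at was at -6.01 in P6 replicate 4, with the others at -0.15 to 0.19. Rbpj 1454896_at was at the floor, -6.64, in P6 replicate 3, with the others at -1.34 to 0.60. Each was low, each was in a different cell and none was an effector gene.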

How the results depend on the processing

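No called member changed direction under any alternative run. The count of member probe sets over 3-fold higher at P6 was 8 to 12 against 10, and 8 to 11 with a cell left out. The 1 probe set called higher at P30 was not called (0) with spike centering, without _x_at and _s_at probe sets, or without P30 replicates 2 and 5 (chosen after seeing the data), and 2 were called with arithmetic means. With medians the count stayed at 1, but Jag1 1421106_at (-1.87) was called in place of the Dner probe set (-0.21). Leaving out 1 cell gave 0 to 1. The median member difference was 2.20 over probe sets and 2.49 over genes with medians in place of means, 1.76 over probe sets and 2.01 over genes without P30 replicates 2 and 5, and 1.20 to 1.72 over probe sets and 1.45 to 1.86 over genes with 1 cell left out. Probe sets with all P6 cells above numbered 3 with a floor of 0.1 and 6 with spike centering. Over the other pathway genes, spike centering gave 17 beyond 3-fold toward P6 and 0 toward P30, with a median of 0.44, the 2-fold rule gave 21 and 4, leaving out P6 replicate 5 and P30 replicate 5 (also chosen after seeing the data) gave 15 at P6, and leaving out 1 cell gave 9 to 13 at P6 and 1 to 3 at P30. With a floor of 0.1 the log2 differences of Hes1 and the Hes5 probe sets were 2.44, 2.70 and 2.85. Every P30 value of these probe sets lay under that floor and was set to it. Of 339 values of member probe sets under the alternatives, 336 moved by less than the SD between cells. The ratios used here carry no detection call, so a low ratio may stand for a transcript below detection. No paired analysis was possible because the result comes from no test and replicate numbers only name cells.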

Other observations

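Of 12 proneural and Id genes, which Hes proteins or their partners are known to act on or with, 11 were measured, 2 were over 3-fold higher at P6 and none at P30, against 9.39% and 4.93% of all genes. Id1, an inhibitor of basic helix-loop-helix factors, was 5.02-fold higher at P6 with no overlap of cells, with log2 means of 0.10 ± 0.52 in P6 cells and -2.22 ± 0.29 in P30 cells (SD, n = 5 of each age). Id3 of the same family, chosen after its values were seen, was 3.86-fold higher at P6 with overlapping ages, while Id2 had a log2 difference of 1.08 and Id4 of -0.62. The proneural genes Neurog1, Neurog2, Neurod1 and Atoh1, which drive neuronal fates and were also chosen after their values were seen, had log2 differences of 0.47, 0.30, 0.50 and 0.59, and the other basic helix-loop-helix genes of the list, Ptf1a, Olig1 and Olig2, had -0.25, -0.59 and -0.31, all with overlapping ages. Neurod1, also in the granule neuron marker list, was highest in P6 replicate 5, at 2.62. This was the cell with low Hes1 and Hes5 and with high Stmn2, Tubb3, Gap43 and Snap25. Neurog1, Neurog2 and Atoh1 stood at -0.25, -2.37 and -0.34 in it. Whether these values are linked was not tested. Snw1, a coactivator of the Notch complex chosen after its values were seen, was 2.41-fold higher at P6, under the size rule, yet had no overlap between ages.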
